A study of Homo sapiens with 16 samples.

Results

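The synapse and synaptic vesicle genes followed here are 35 genes given by name, and each of them was found under a single Ensembl gene among the 57736 genes of the count table. They comprise 21 genes of the vesicle and its release, 3 vesicular transporters, 6 adhesion molecules and 5 postsynaptic scaffold proteins. RNA was sequenced from cells of H9, an established human embryonic stem cell line, as undifferentiated cells (D0) and on D12, D30 and D70 of differentiation towards cortical neurons, which was induced over the days to D12 under inhibitors of BMP and activin receptors. At each stage 2 libraries came from cells kept in 40 µM TMG (Thiamet-G, an inhibitor of O-GlcNAcase, the enzyme that removes O-GlcNAc from proteins) and 2 from control cells given DMSO, so that all 16 libraries share a cell line and a differentiation protocol and the 8 groups differ only in stage and TMG. Groups were taken from the library titles, which match the column names of the count table. A treatment field in the labels instead reads control for all 8 replicate 1 libraries and TMG for all 8 replicate 2 libraries, so that it disagrees with the title for control replicate 2 and TMG replicate 1 at every stage, and each TMG result below holds for the titles. Total counts ranged from 10334908 to 19836878 per library, the 35 genes had between 1 and 5486 counts in a library, and all 35 passed the expression filter that left 24249 genes for testing. Each culture is a mixture of cells, and in bulk RNA fewer neurons and less RNA per neuron cannot be told apart.

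A synapse passes a signal when a vesicle loaded with transmitter fuses with the presynaptic membrane. Synapsins and RAB3A hold and guide the vesicles, the active zone proteins RIMS1, RIMS2, BSN and PCLO mark the site of release, the SNARE proteins SNAP25, VAMP2 and STX1A drive fusion after priming by UNC13A, and the synaptotagmin SYT1 senses the calcium that triggers it. Neurexins on the presynaptic side bind neuroligins and LRRTM2 on the postsynaptic side, where DLG4, HOMER1 and the SHANK proteins form the scaffold beneath the receptors. Many of these genes are held down outside neurons by the repressor REST, which binds the RE1 element.

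The 250 bases upstream of the annotated start are shown for UNC13A, which fell most between D0 and D70 in control cells, and for SYN1, the only one of the 35 genes whose window held the RE1 core. Sequences were read from GRCh37, are written 5′ to 3′ on the strand of the gene, and carry in capitals the RE1 core (AGCACC and GGACAG with 2 bases between them), the cAMP response element (TGACGTCA) and the GC box (GGGCGG), each searched on both strands, with adjoining boxes allowed to touch. UNC13A lies at chr19:17712145-17799174 and SYN1 at chrX:47431300-47479256 (both minus strand). The windows are chrX:47479257-47479506 and chr19:17799164-17799413, each ending at the base before the start of the canonical transcript.
SYN1: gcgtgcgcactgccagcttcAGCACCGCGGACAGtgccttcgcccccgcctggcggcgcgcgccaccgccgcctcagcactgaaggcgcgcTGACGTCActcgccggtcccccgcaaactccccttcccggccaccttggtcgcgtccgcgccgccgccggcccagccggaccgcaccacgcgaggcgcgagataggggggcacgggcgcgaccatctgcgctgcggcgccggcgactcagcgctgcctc
UNC13A: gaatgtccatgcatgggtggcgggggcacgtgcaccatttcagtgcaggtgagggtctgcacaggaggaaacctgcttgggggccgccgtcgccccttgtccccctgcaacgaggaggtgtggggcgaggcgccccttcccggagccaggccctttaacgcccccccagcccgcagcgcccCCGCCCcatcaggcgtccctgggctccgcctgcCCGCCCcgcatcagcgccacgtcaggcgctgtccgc
In windows of 300 bases that reach 50 bases past the start, the RE1 core was found in 13 of 16053 promoters of tested genes (0.081%) and in 1 of the 35, SYN1 (2.86%). The cAMP response element was found in 488 promoters (3.04%) and in 3 of the 35 (8.57%), SYN1 among them. The GC box was found in 69.8% of all promoters and 68.6% of the 35. These matches describe letters in the reference and not binding. Only the exact letters and spacing were searched, and only in these windows. Sites with other letters, other spacing or other positions would be missed, so a window without a match does not show that a gene lacks the element.

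The libraries of D70 did not resemble each other in their markers of cell types. The summed level of 6 mesenchymal markers (COL1A1, COL1A2, COL3A1, LUM, DCN and PDGFRB) was 7589 and 45162 CPM (counts scaled by library size) in the control and 3833 and 58956 CPM in the TMG replicates 1 and 2. For 5 of the 6 markers both replicate 2 libraries were above both replicate 1 libraries. The summed level of 10 pan-neuronal markers was 1216 and 560 CPM in control and 1272 and 226 CPM in TMG-treated cells, with none of the 10 at 0, and 9 of the 10 were lowest in TMG replicate 2. The summed level of 6 markers of choroid plexus and pigment epithelium was 10104 and 960 CPM in control and 3102 and 17.7 CPM in TMG-treated cells, with 1 of the 6 at 0 in TMG replicate 2, where all 6 were lowest. TTR made up 9812 of the 10104 CPM in control replicate 1, where RPE65, MITF and KCNJ13 were also highest (63.7, 71.6 and 38.9 CPM). The pigment genes PMEL and TYR were instead highest in control replicate 2 (598 and 98.7 CPM). In TMG replicate 2 DCX, a protein of migrating young neurons, was at 14.2 CPM against 152 to 513 CPM in the other 3. The main counts of D70 are therefore given with and without replicate 2, and the part of these markers in them was not tested.

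Across the 4 stages of control cells, the 35 genes did not move as a block. The highest mean level fell on D0 for 6 genes, on D12 for 10, on D30 for 7 and on D70 for 12. Of those 12, 9 were genes of the vesicle and its release, which make up 21 of the 35. The shares of all genes with their highest level at each stage were not computed, so these counts have no background to be read against. Some of the genes were already well expressed in undifferentiated cells. NLGN2, a neuroligin of inhibitory synapses, was at 231 and 197 CPM in the D0 controls and stayed between 156 and 300 CPM in the control libraries of later stages. From D0 to D70, 25 of the 35 had a higher and 10 a lower fitted level in control cells, with a median log2 fold change of 0.87 against 0.03 over all genes tested.

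**Figure D1:**
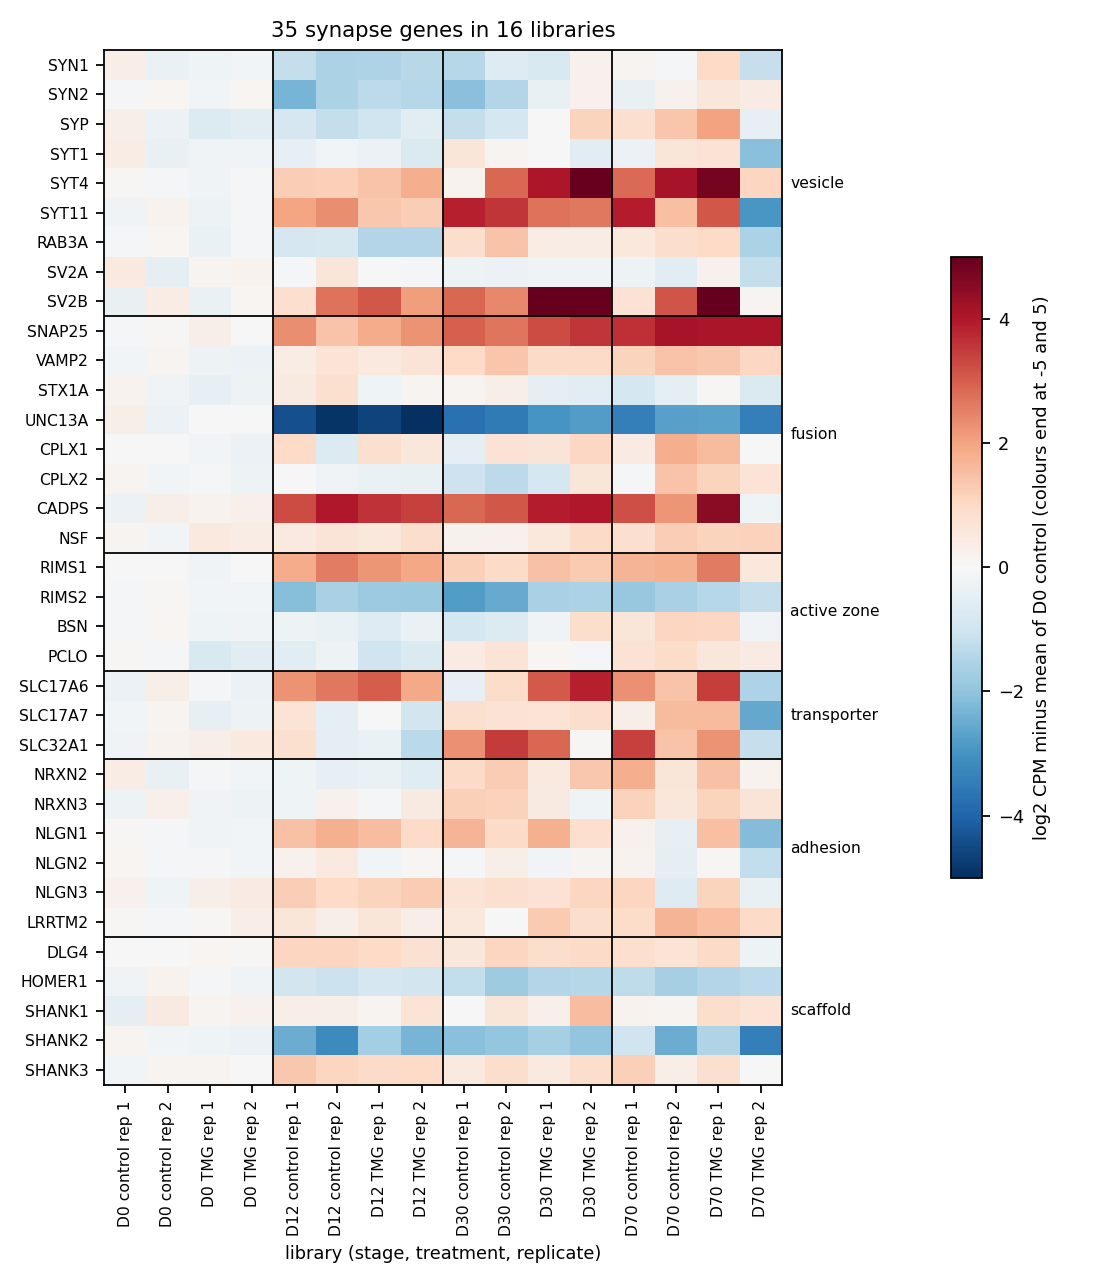
Each row is 1 of the 35 genes, grouped by role, and each column 1 of the 16 libraries, with colour giving log2 CPM minus the mean of the D0 controls and ending at -5 and 5. UNC13A, RIMS2, HOMER1 and SHANK2 are blue in every library after D0, SNAP25 is red in every one, and the column of D70 TMG replicate 2 differs from its 3 neighbours.

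With adjusted p under 0.05 taken as a call (quasi-likelihood F-test of edgeR), 7 of the 35 genes rose from D0 to D70 in control cells, against 15.0% of all genes tested, and 3 fell, against 14.7%. The genes that rose were SNAP25, SYT4, RIMS1, LRRTM2, VAMP2, NSF and PCLO, and those that fell were UNC13A, RIMS2 and HOMER1. Vesicle and release genes gave 6 of the rises and 2 of the falls among 21, with a median log2 fold change of 0.88. The 3 transporters gave no call with a median of 2.07, the 6 adhesion molecules 1 rise with a median of 0.65, and the 5 scaffold genes 1 fall with a median of 0.09. When any 1 of the 4 libraries was left out, 6 of the 10 calls always remained, namely SNAP25, VAMP2, NSF, UNC13A, RIMS2 and HOMER1. The calls of LRRTM2, PCLO, RIMS1 and SYT4 were lost without D0 control replicate 2. With both D70 replicate 2 libraries left out, a choice made after seeing the data, 16 genes rose (19.4% of all genes) and 5 fell (16.2%). By role these were 8 rises and 3 falls among vesicle and release genes, 2 rises of transporters, 4 rises of adhesion molecules and 2 rises and 2 falls in the scaffold. From all libraries DESeq2 called 12 higher (16.8%) and 4 lower (14.5%).

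**Figure D2:**
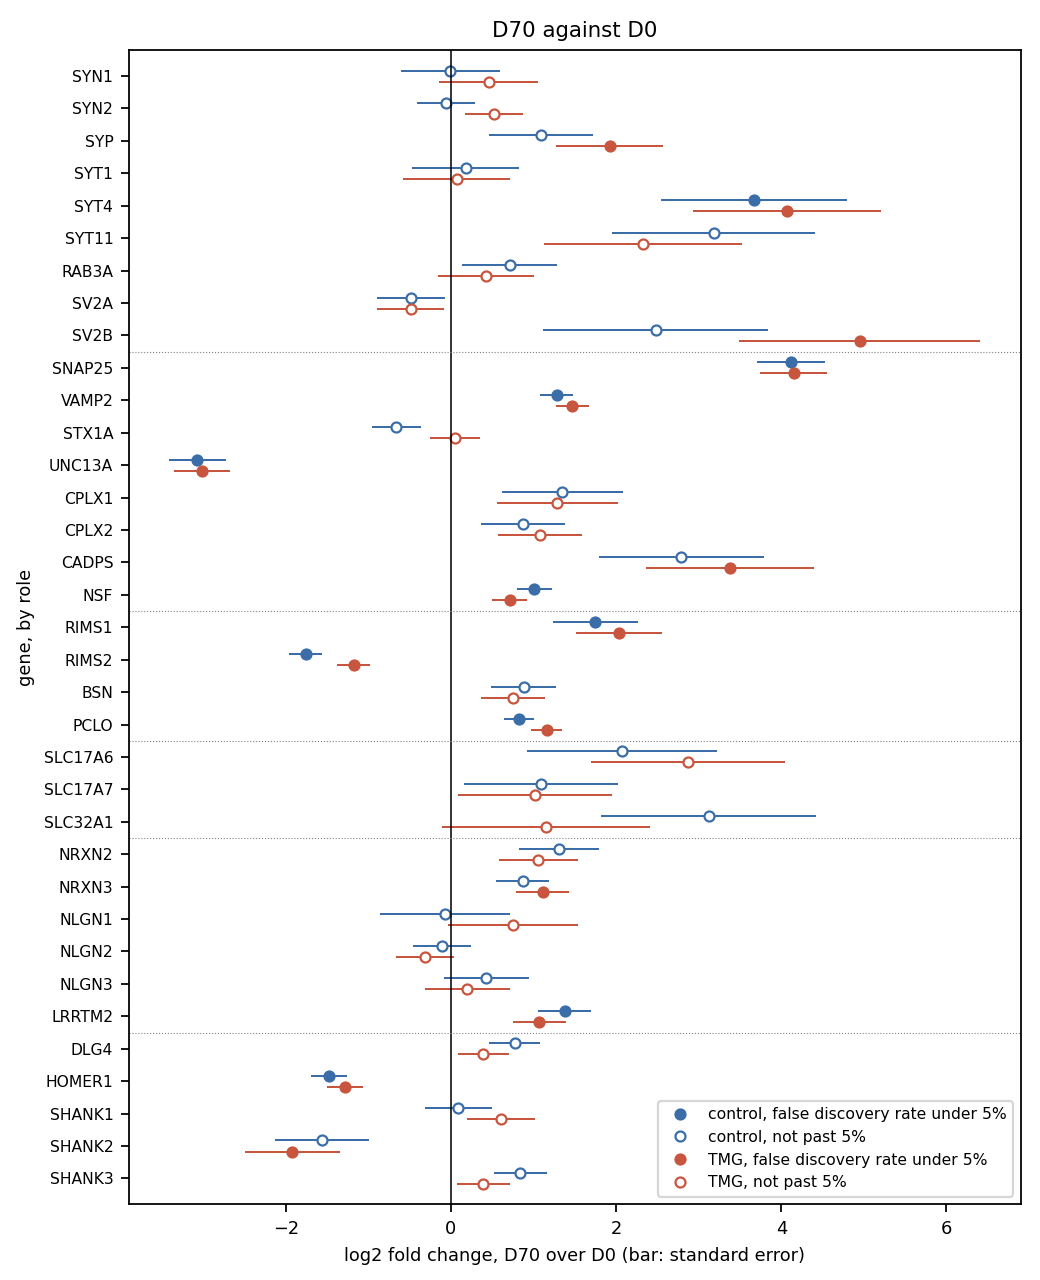
Points give the log2 fold change of each gene from D0 to D70 in control and TMG-treated cells, bars the standard error, and filled points a false discovery rate under 5%. Filled points on the right are 7 in control and 11 in TMG-treated cells, and on the left 3 and 4.

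Within the fusion machinery, SNAP25 and UNC13A ran in opposite directions. SNAP25, the membrane SNARE of vesicle fusion, was at 0.618 and 0.699 CPM in the D0 controls, 3.78 and 1.97 CPM on D12, 6.2 and 4.92 CPM on D30 and 9.71 and 13.4 CPM on D70. The libraries of each stage lay above all those of the stage before, and the log2 fold change from D0 to D70 was 4.12 ± 0.41 (SE, adjusted p = 0.000151). The first step, from D0 to D12, passed as well (2.12 ± 0.39, adjusted p = 0.00628). UNC13A, which primes docked vesicles, was at 205 and 139 CPM on D0, 7.91 and 5.47 CPM on D12, 12.5 and 14.5 CPM on D30 and 15.6 and 25.4 CPM on D70. Its D0 libraries stood far above all others, the fall to D12 was -4.68 ± 0.36 on the log2 scale (adjusted p = 0.000113), and the level on D70 remained below D0 (-3.07 ± 0.34, adjusted p = 0.000216). A neuronal priming factor was thus measured at its highest level in undifferentiated stem cells. VAMP2, the vesicle SNARE, rose from 28.9 and 34.3 CPM on D0 to 67.9 and 85.5 CPM on D70 (1.28 ± 0.20, adjusted p = 0.00131), and NSF, the ATPase that takes used SNARE complexes apart, from 29.7 and 25 CPM to 46.9 and 63.5 CPM (1.01 ± 0.21, adjusted p = 0.00536). STX1A, the other membrane SNARE, had its highest libraries on D12 (20 and 26 CPM) and its lowest on D70 (7.97 and 10.9 CPM), and its change from D0 did not pass (-0.66 ± 0.30, adjusted p = 0.114), while it was called lower without both D70 replicate 2 libraries. CADPS, a priming factor of dense-core vesicles, went from 11.6 and 17.5 CPM on D0 to 137 and 232 CPM on D12 and rose by that step (3.67 ± 1.04, adjusted p = 0.0361).

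The active zone genes split in the same way. RIMS2, a scaffold that tethers vesicles near calcium channels, was at 80.1 and 86.2 CPM on D0, 18.8 and 27.2 CPM on D12, 11.9 and 14.2 CPM on D30 and 22.1 and 27 CPM on D70 in control cells. It fell from D0 to D12 (-1.86 ± 0.20, adjusted p = 0.00064) and was still lower on D70 (-1.76 ± 0.20, adjusted p = 0.000251). Its relative RIMS1 was at 5.75 and 5.46 CPM on D0, 20.7 and 33.6 CPM on D12, 13.1 and 11.1 CPM on D30 and 18.5 and 19.3 CPM on D70. Its D30 libraries were below those of D12 and D70, and its rise from D0 to D70 (1.75 ± 0.51, adjusted p = 0.0259) was lost when any 1 of the 4 libraries was left out. PCLO, a very large organiser of the active zone, was at 46.9 and 42.2 CPM on D0, 31.1 and 37.2 CPM on D12, 58.7 and 71.7 CPM on D30 and 73.9 and 83.6 CPM on D70. It rose from D0 to D70 (0.82 ± 0.18, adjusted p = 0.00775). BSN, its partner, reached 48.1 and 66.5 CPM on D70 from 29.4 and 33 CPM on D0 and did not pass (0.88 ± 0.39, adjusted p = 0.11).

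Among the vesicle proteins, SYT4 and SYT11 had some of the widest ranges and SYT1 a narrow one. SYT4, a synaptotagmin of dense-core vesicles, was at 2.66 and 2.45 CPM on D0, 6.24 and 5.91 CPM on D12, 2.91 and 19.7 CPM on D30 and 19 and 46.4 CPM on D70 in control cells. The replicates of D30 lay far apart, and the rise from D0 to D70 (3.67 ± 1.13, adjusted p = 0.0318) was lost without D70 control replicate 2 (2.89, adjusted p = 0.107) and without either D0 control. SYT11 was at 6.18 and 8.04 CPM on D0 and at 108 and 20.1 CPM on D70, a difference of 3.18 ± 1.23 that did not pass (adjusted p = 0.0747) but was called by DESeq2 and by edgeR without D70 control replicate 2. SYT1, the calcium sensor of fast release, had 68.6 and 41.5 CPM on D0 and 43.4 and 81.5 CPM on D70, and the groups overlapped. SYN2, a synapsin that tethers vesicles in reserve, was at 11.4 and 12.9 CPM on D0, fell to 2.31 and 3.94 CPM on D12 (-1.96 ± 0.36, adjusted p = 0.00618), was at 2.73 and 4.37 CPM on D30 and stood at 9.32 and 14 CPM on D70. SYN1 followed a like course, called lower from D0 to D12 only with the stages compared alone in the fit, with 7.35 and 4.48 CPM on D0, 2.46 and 1.81 CPM on D12 and 6.36 and 5.39 CPM on D70. The exons of SYN1 overlap those of ARAF on the other strand, which had 7949 counts over all libraries against 1046 for SYN1. SYP, a major membrane protein of the vesicle, was at 10.7 and 6.99 CPM on D0 and 15.1 and 22.5 CPM on D70 (1.09 ± 0.63, adjusted p = 0.212).

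**Figure D3:**
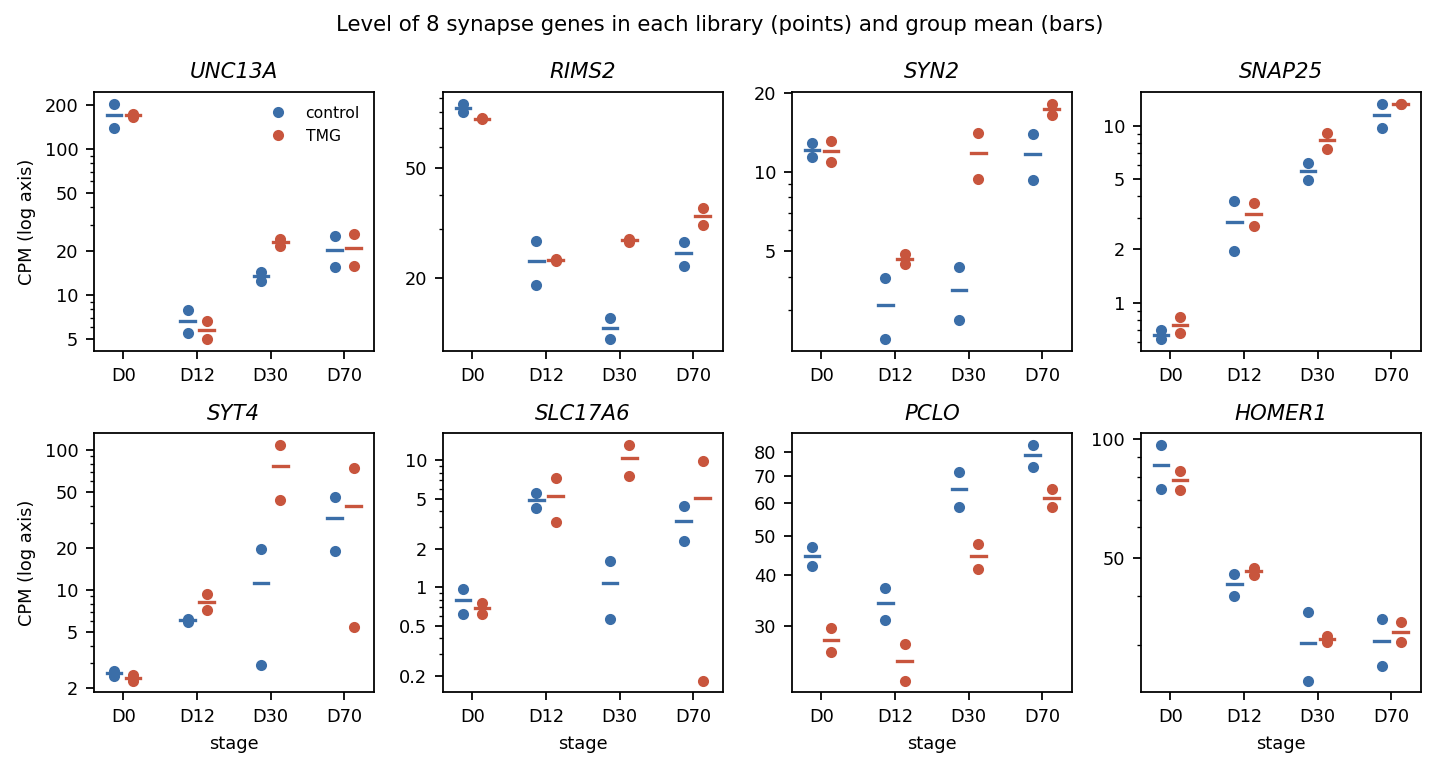
Points give the CPM of each library and bars the group means, on log axes, by stage and treatment for 8 of the genes. UNC13A, RIMS2 and HOMER1 are highest on D0, SNAP25 climbs through all 4 stages, and on D30 the TMG points of RIMS2, SYN2, SYT4 and SLC17A6 lie above the controls while those of PCLO lie below.

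The transporters, which load vesicles with transmitter and so mark the kind of neuron, stayed low and uneven. SLC17A6, a vesicular glutamate transporter, was at 0.618 and 0.979 CPM on D0, 4.23 and 5.53 CPM on D12, 0.564 and 1.61 CPM on D30 and 4.37 and 2.33 CPM on D70 in control cells. Its D30 libraries were both below its D12 libraries, and no step passed in the fit over all libraries. With the stages compared alone in the fit it rose from D0 to D12, and without both D70 replicate 2 libraries it and SLC32A1 rose from D0 to D70. SLC17A7, the other glutamate transporter of cortex, was at 5.07 and 6.16 CPM on D0 and 6.94 and 17.1 CPM on D70. SLC32A1, which carries GABA and glycine, was at 0.309 and 0.42 CPM on D0, 2.26 and 5.37 CPM on D30 and 5.21 and 1.21 CPM on D70, and its change of 3.12 ± 1.30 from D0 to D70 did not pass (adjusted p = 0.0931).

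Of the adhesion molecules, LRRTM2 passed between D0 and D70 in control cells with all libraries in edgeR's fit, DESeq2 added NRXN2 and NRXN3, and the fit without both D70 replicate 2 libraries added those and NLGN3. LRRTM2, a postsynaptic ligand of neurexins, went from 12.4 and 11.6 CPM to 22.9 and 39.4 CPM (1.38 ± 0.32, adjusted p = 0.00965), and lost the call without D70 control replicate 2 (0.93, adjusted p = 0.0612) or without either D0 control. Its exons overlap those of CTNNA1 on the other strand, and strand use in the counting is not stated. NRXN2 was at 29.7 and 18.1 CPM on D0 and 83 and 35.4 CPM on D70 (1.31 ± 0.48, adjusted p = 0.0628). NRXN3 was at 16.5 and 24.1 CPM on D0, 17.2 and 23.4 CPM on D12, 45.2 and 44.6 CPM on D30 and 44 and 29.9 CPM on D70 (0.87 ± 0.32 from D0 to D70, adjusted p = 0.0609). Both neurexins thus had higher libraries on D70 than on D0, without overlap. NLGN3, a neuroligin of both excitatory and inhibitory synapses, was at 19.6 and 14.8 CPM on D0 and 35.6 and 10.8 CPM on D70, and the groups overlapped.

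The postsynaptic scaffold held 1 fall, that of HOMER1, from D0 to D70 in edgeR's fit of all libraries. DESeq2 also called SHANK2 lower and SHANK3 higher, and the fit without both D70 replicate 2 libraries called SHANK2 lower and SHANK3 and DLG4 higher. HOMER1, which links receptors to SHANK proteins, was at 74.9 and 96.8 CPM on D0, 45.5 and 40.1 CPM on D12, 36.4 and 24.4 CPM on D30 and 34.9 and 26.6 CPM on D70 in control cells (-1.48 ± 0.22 from D0 to D70, adjusted p = 0.000956). SHANK2 was at 144 and 120 CPM on D0, fell to 23.5 and 14.3 CPM on D12 (-2.80 ± 0.60, adjusted p = 0.012) and was at 65.8 and 23.5 CPM on D70 (-1.56 ± 0.57 from D0, adjusted p = 0.062). SHANK3 moved the other way, from 35.3 and 43.4 CPM on D0 to 101 and 82.6 CPM on D12 (1.22 ± 0.32, adjusted p = 0.0269). DLG4, the scaffold known as PSD-95, rose over that step, from 55 and 53.4 CPM to 113 and 114 CPM (1.07 ± 0.31, adjusted p = 0.0414). The exons of DLG4 overlap those of ACADVL on the other strand, which had 51183 counts over all libraries against 21303 for DLG4.

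By edgeR, most calls between consecutive stages came from the step out of the undifferentiated state, while DESeq2 called 10 genes from D0 to D12 (5 higher, 9.13%, and 5 lower, 12.4%), 7 from D12 to D30 and 7 from D30 to D70 in control cells. From D0 to D12, 5 of the 35 genes rose in control cells (6.97% of all genes) and 5 fell (9.71%), with medians of 0.35 for the 35 and 0.00 for all genes. Over this step the summed level of 5 markers of undifferentiated cells went from 3247 and 2913 CPM to 541 and 590 CPM in control, that of 5 cycling markers from 1457 and 1334 to 755 and 602 CPM, that of the mesenchymal markers from 165 and 174 to 1138 and 1285 CPM and that of the pan-neuronal markers from 273 and 390 to 518 and 852 CPM, and their part in the calls was not tested. The genes that rose were CADPS, SNAP25, RIMS1, SHANK3 and DLG4, and those that fell UNC13A, SHANK2, SYN2, RIMS2 and HOMER1. The calls fell to 4 without D0 control replicate 1 (6.02% of all genes in either direction), 5 without D0 control replicate 2 (7.79%), 3 without D12 control replicate 1 (4.64%) and 4 without D12 control replicate 2 (5.51%), and UNC13A and RIMS2 were called in each case, while CADPS, DLG4 and SHANK3 were lost in each. With only the 4 libraries of the stages compared in the fit, 13 rose (16.1%) and 8 fell (18.1%). From D12 to D30, PCLO alone rose (0.94 ± 0.18, adjusted p = 0.0234; 1.91% of all genes) and none fell (1.69%), and the call was lost without any 1 of the 4 libraries, while DESeq2 called 6 higher (7.04%) and 1 lower (5.18%). From D30 to D70, edgeR called none of the 35 in either direction (0.305% and 0.0784%), with 8 higher (10.8%) and 1 lower (7.58%) at an unadjusted p under 0.05. DESeq2 called 7 higher over that step, BSN, CPLX2, LRRTM2, NSF, RIMS2, SYN2 and SYP (5.18% of its tested genes).

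In TMG-treated cells the calls by edgeR again lay mostly between D0 and D12. From D0 to D12, 4 genes rose (CADPS, RIMS1, SNAP25 and VAMP2; 7.24%) and 4 fell (HOMER1, RIMS2, SYN2 and UNC13A; 9.19%), with 2 calls left without D0 TMG replicate 1 (3.60% of all genes in either direction) or replicate 2 (4.23%), 3 without D12 TMG replicate 1 (4.57%) and 4 without D12 TMG replicate 2 (7.21%). From D12 to D30, UNC13A rose in TMG-treated cells, from 6.65 and 4.97 CPM to 21.6 and 24.4 CPM (1.98 ± 0.33, adjusted p = 0.0325; 0.388%), a call that was lost without either D12 TMG library or D30 TMG replicate 2, and none fell (0.124%). Over that step 28 of the 35 had a higher level on D30, with a median log2 fold change of 0.43 against -0.02 over all genes, and in control cells 17 of the 35, with a median of -0.02. Of the 10 pan-neuronal markers, 9 were higher in TMG-treated cells (median 0.71) and 3 in control cells (median -0.60). The summed mesenchymal markers went from 1227 and 1894 CPM to 5662 and 29442 CPM in TMG-treated cells. The part of these markers in the difference was not tested. From D30 to D70, none passed in either direction (0.00412% each), with 2 higher (6.45%) and 0 lower (4.51%) at an unadjusted p under 0.05. Without D70 TMG replicate 1 there were 10 falls (3.49%) and no rise (3.27%), and without replicate 2 no call.

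From D0 to D70, 11 genes rose in TMG-treated cells (14.9%) and 4 fell (14.1%). SNAP25 (4.15 ± 0.41, adjusted p = 0.000135) and UNC13A (-3.02 ± 0.34, adjusted p = 0.000228) again had the lowest adjusted p of each direction. SV2B, a vesicle glycoprotein, was at 0.755 and 1.08 CPM in the D0 TMG libraries and at 56.5 and 1.11 CPM in those of D70, so that its call (4.95 ± 1.46, adjusted p = 0.0281) rested on replicate 1. Which D70 library was kept decided the balance of the calls. Without D70 TMG replicate 2, 18 rose (14.7%) and 3 fell (11.7%), and without D70 TMG replicate 1, 3 rose (13.6%) and 11 fell (13.8%), with medians turning from 0.75 over both to -0.34. When D0 TMG replicate 1 was left out, 3 rose (5.33%) and 3 fell (6.93%), and the same 6 genes were called without D0 TMG replicate 2 (5.27% and 6.95%). With both D70 replicate 2 libraries left out, 22 rose (18.6%) and 4 fell (14.3%).

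The D70 TMG replicates also stood at opposite ends of the 4 libraries of that stage. Replicate 2 was the lowest of the 4 for 23 of the 35 genes (32.5% of all genes) and replicate 1 the highest for 17 (18.8%). Against the mean of the other 3 libraries, the median of the 35 genes on the log2 scale was -1.09 in TMG replicate 2, with -0.03 over all genes, and 0.73 in TMG replicate 1, with 0.01 over all genes. The deepest differences in TMG replicate 2 were those of SYT11 (-5.74), SLC17A6 (-3.92), SLC17A7 (-3.72), CADPS (-3.54) and SLC32A1 (-3.51), the first at 0.832 CPM and SLC17A6 at 0.185 CPM. In that library SLC17A6 had 2 counts, SLC32A1 had 1 and SYT11 and SLC17A7 had 9 each, so that the size and order of their differences depend on the prior count. A smaller group kept its level there, with RIMS2 (0.44), SHANK1 (0.30), SYN2 (0.29), HOMER1 (0.17), SNAP25 (0.16) and NSF (0.11) above the mean of the other 3. SNAP25 was at 13.4 CPM in D70 TMG replicate 2 and at 9.71, 13.4 and 13.3 CPM in the others. The 35 genes therefore differed among themselves in this library, in which the summed pan-neuronal markers were lowest and the summed mesenchymal markers highest.

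**Figure D4:**
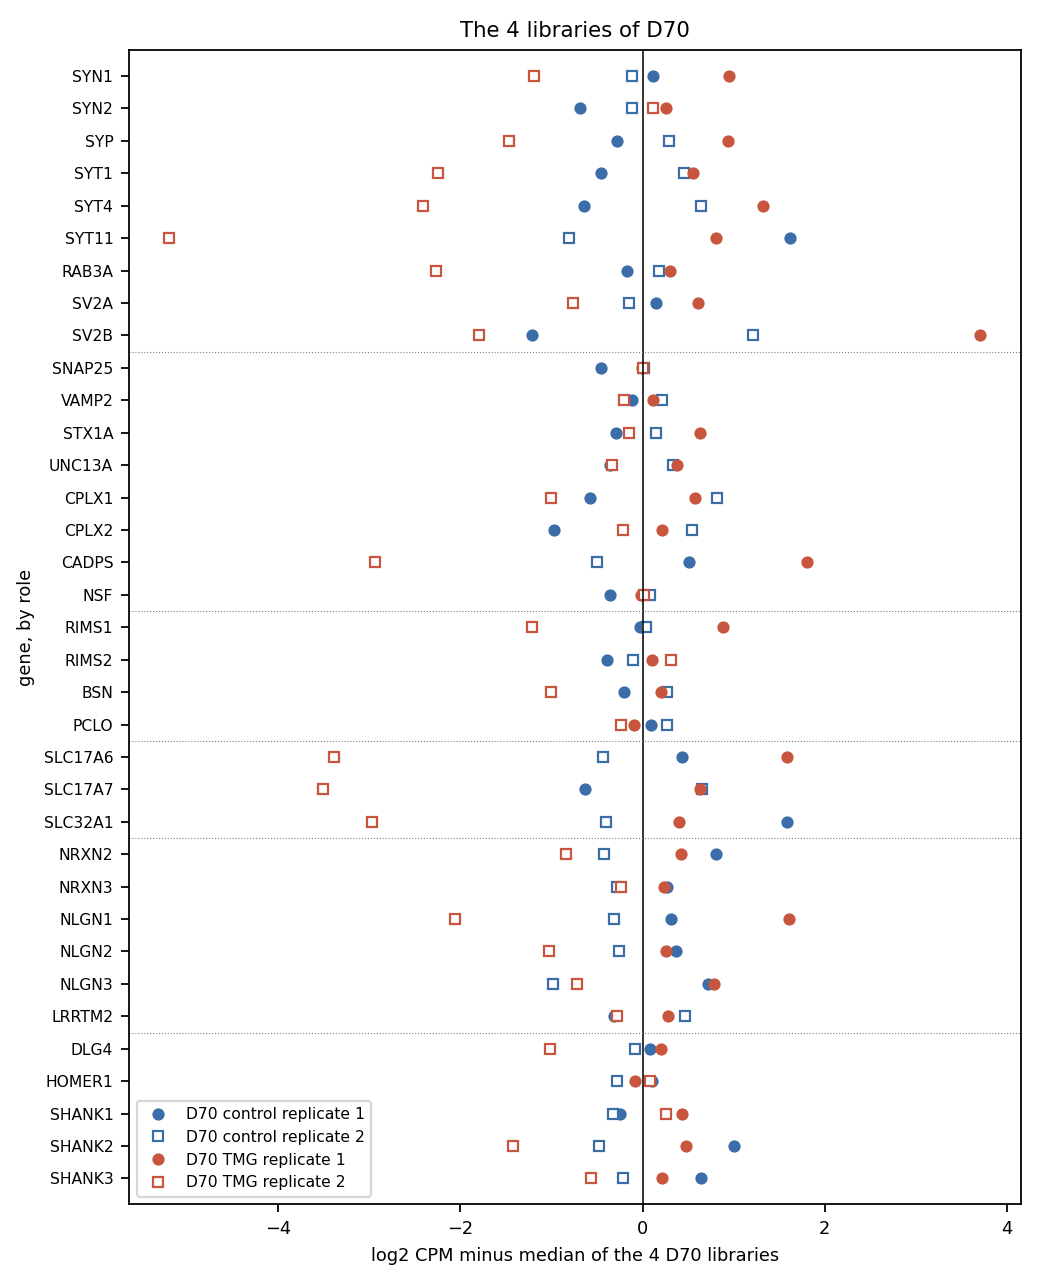
Each row gives the log2 CPM of a gene in the 4 libraries of D70 minus their median, with circles for replicate 1, squares for replicate 2 and colour for treatment. The square of TMG replicate 2 is the leftmost mark for 23 of the 35 genes and the circle of TMG replicate 1 the rightmost for 17.

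The comparison the study was built for is TMG against control at each stage. In edgeR's main fit none of the 35 genes and none of all genes tested (0% in both directions) passed the same threshold at any stage. On D0, 1 of the 35 was lower at an unadjusted p under 0.05 (0.895% of all genes) and 0 higher (0.367%), and on D12, 2 were lower (0.936%) and 0 higher (1.54%). DESeq2 also called none on D0, D12 or D70. Both TMG libraries lay above both controls for 4 of the 35 on D0 (19.7% of all genes) and below for 11 (16.9%). On D12 they lay above for 3 (17.8%) and below for 9 (16.5%).

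BSN, NLGN2, PCLO and STX1A had both TMG libraries below both controls on D0 and again on D12. Of these, PCLO alone was lower on both days at an unadjusted p under 0.05. Its 2 TMG libraries had 25.9 and 29.8 CPM on D0 against 46.9 and 42.2 CPM in the controls, and 22.1 and 27.2 CPM on D12 against 31.1 and 37.2 CPM. On D30 they had 47.7 and 41.4 CPM against 58.7 and 71.7 CPM, and on D70 65.1 and 58.9 CPM against 73.9 and 83.6 CPM. Both TMG libraries of PCLO thus lay below both controls at all 4 stages, which held for 1 of the 35 genes and for 0.883% of all genes, while no gene of the 35 lay above at all 4 (0.441%). The log2 differences were -0.68 ± 0.18, -0.47 ± 0.18, -0.55 ± 0.18 and -0.34 ± 0.18 (SE), in stage order, the first 3 with an unadjusted p under 0.05 and none with an adjusted p below 0.28. STX1A was the other gene with an unadjusted p under 0.05 on D12, with 12.7 and 16.3 CPM in TMG-treated cells and 20 and 26 CPM in control (-0.67 ± 0.29, adjusted p = 1). On the upper side, NSF was at 37.9 and 35.7 CPM on D0 with TMG and at 29.7 and 25 CPM without (0.43 ± 0.21, adjusted p = 1), and SHANK2 at 40.3 and 26.2 CPM against 23.5 and 14.3 CPM on D12 (0.82 ± 0.57, adjusted p = 1).

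On D30 more vesicle and release genes were higher than lower in TMG-treated cells, without passing 5% in edgeR's main fit. At an unadjusted p under 0.05 by edgeR, 10 of the 35 were higher (7.10% of all genes) and 3 lower (4.89%), and vesicle and release genes, 21 of the 35, made up 8 of the 10 and 2 of the 3. The median log2 difference was 0.22 over the 35 and 0.01 over all genes, with 0.63 in vesicle and release genes, 0.01 in transporters, -0.07 in adhesion molecules and 0.06 in the scaffold. Both TMG libraries lay above both controls for 15 of the 35 (23.1% of all genes) and below for 7 (21.0%), of which 13 and 6 were vesicle and release genes. Both D30 TMG libraries were also above both controls for 8 of the 10 pan-neuronal markers, whose sum was 507 and 664 CPM in control and 838 and 1161 CPM in TMG-treated cells with none at 0, and for all 5 markers of cycling cells. TMG replicate 2 was the highest of the 4 for all 6 mesenchymal markers, with a sum of 29442 CPM against 4513 to 5662 CPM in the other 3. The part of these markers in the difference was not tested.

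RIMS2 and SYN2 had the lowest p-values among the 35. RIMS2 (chromosome 8) was at 27 and 27.7 CPM with TMG and at 11.9 and 14.2 CPM in control on D30, a difference of 1.06 ± 0.20 (adjusted p = 0.155 by edgeR and 0.000756 by DESeq2). SYN2 (chr3:12045862-12233532) was at 9.42 and 14.1 CPM with TMG and at 2.73 and 4.37 CPM in control, a difference of 1.72 ± 0.36 (adjusted p = 0.159 by edgeR and 0.00151 by DESeq2). In both genes the TMG libraries stood clear of the controls, and they were the 2 genes DESeq2 called among the 35 (2.03% of its tested genes called higher, 1.18% lower). In the TMG cells of D30 both were near the D70 control level, at 22.1 and 27 CPM for RIMS2 and 9.32 and 14 CPM for SYN2. That comparison was not tested, and other groups lay as near. RIMS2 was at 23.3 and 23 CPM on D12 with TMG, and SYN2 at 11.4 and 12.9 CPM in the D0 controls. The exons of SYN2 overlap those of TIMP4 on the other strand.

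Among the other genes with a higher level on D30, SLC17A6 and SYT4 had the largest differences and wide errors. SLC17A6 was at 7.58 and 13.3 CPM with TMG and at 0.564 and 1.61 CPM in control (3.21 ± 1.16, adjusted p = 0.314). SYT4 was at 43.9 and 109 CPM with TMG and at 2.91 and 19.7 CPM in control (2.74 ± 1.06, adjusted p = 0.347). Both had TMG libraries above both controls with replicates more than 1 log2 unit apart in at least 1 arm. SV2B was at 42.5 and 40.4 CPM with TMG and at 8.08 and 5.92 CPM in control, groups that did not overlap although the difference did not pass (2.57 ± 1.28, adjusted p = 0.458). BSN (1.22 ± 0.39), SYP (1.73 ± 0.65), CPLX2 (1.23 ± 0.52), LRRTM2 (0.84 ± 0.32), UNC13A (0.77 ± 0.32) and NSF (0.55 ± 0.21) made up the rest of the 10, with adjusted p from 0.27 to 0.385. On the lower side, NRXN3 (chr14:78636716-80334634) was at 27.4 and 17.3 CPM with TMG and at 45.2 and 44.6 CPM in control (-1.01 ± 0.32, adjusted p = 0.27), beside PCLO and STX1A (-0.74 ± 0.30, adjusted p = 0.363). SNAP25, the gene with the largest rise over the course of control cells, was at 7.38 and 9.18 CPM with TMG and 6.2 and 4.92 CPM in control (0.58 ± 0.35, adjusted p = 0.558).

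**Figure D5:**
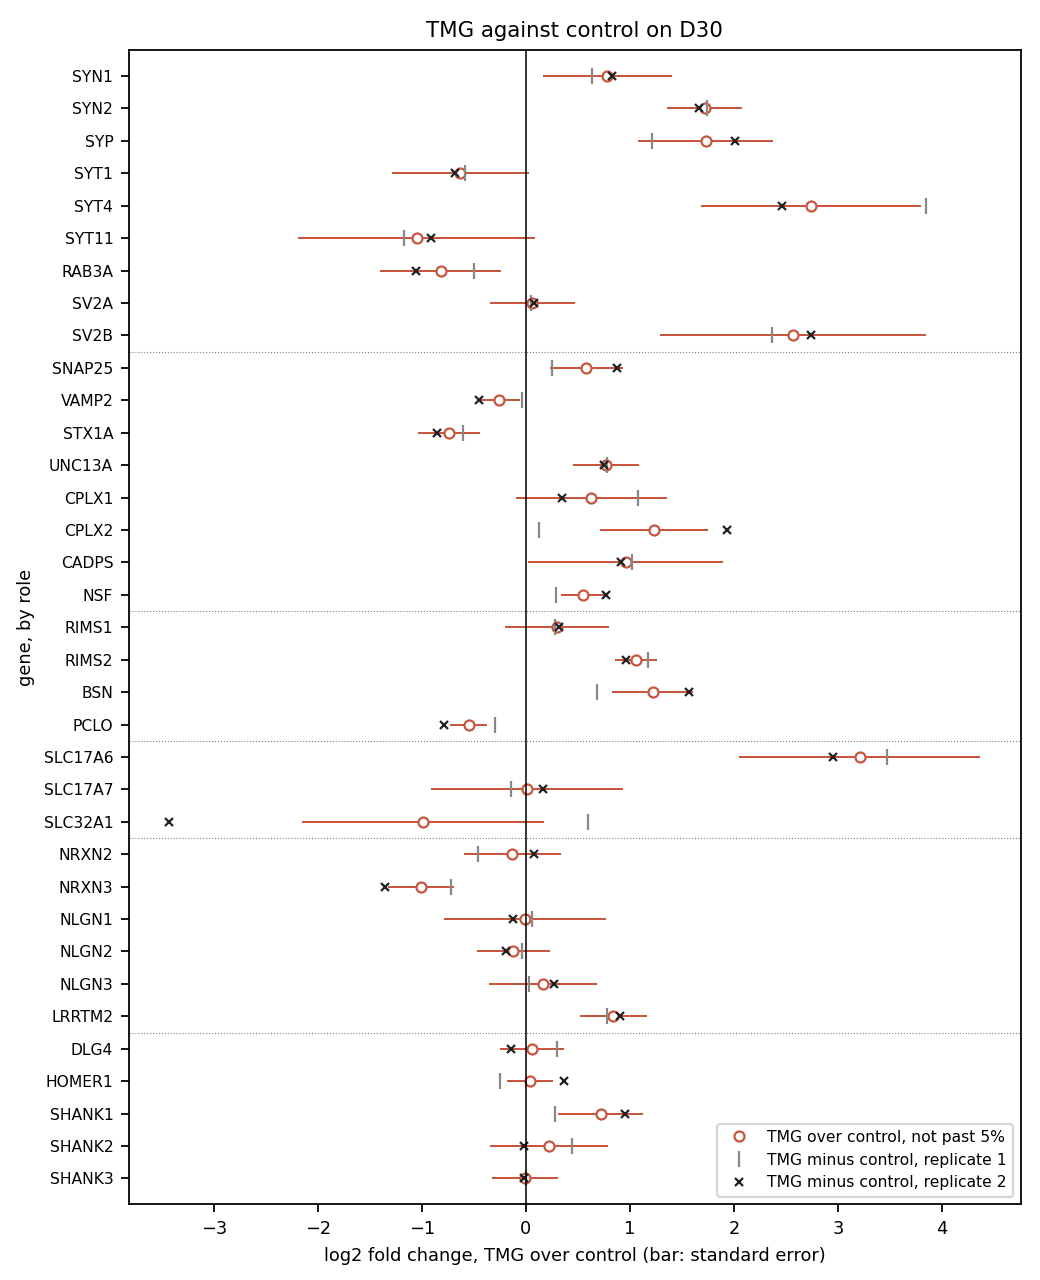
Open circles give the log2 fold change of TMG over control on D30 from the fit with its standard error, and the other marks the difference between libraries of the same replicate number. RIMS2 and SYN2 have short bars right of 0, SLC17A6, SYT4 and SV2B lie furthest right with long bars, and no gene passes 5%.

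On D70 the difference between TMG and control was not stable across libraries. At an unadjusted p under 0.05, RIMS2 alone was higher (2.61% of all genes) and none lower (2.88%), and the median over the 35 was 0.04 against -0.01 over all genes. RIMS2 was at 31.1 and 36 CPM with TMG and at 22.1 and 27 CPM in control (0.45 ± 0.20, adjusted p = 0.896), and both TMG libraries were above both controls. That order held for 3 of the 35 genes, RIMS2, SYN2 and SHANK1 (9.77% of all genes), and the opposite order for PCLO alone (12.4%). Without D70 TMG replicate 1, 7 of the 35 were lower (CADPS, DLG4, NLGN1, RAB3A, SLC17A7, SYT1 and SYT11; 2.33% of all genes) and 0 higher (0.969%), and without D70 TMG replicate 2 or with both replicate 2 libraries left out, none passed. SV2B, at 56.5 and 1.11 CPM with TMG and 1.74 and 9.9 CPM in control, had both the highest and the lowest of the 4 libraries under TMG (2.32 ± 1.27, adjusted p = 0.909). SHANK3 was at 67.6 and 39.1 CPM with TMG and 90.6 and 50 CPM in control (-0.40 ± 0.32, adjusted p = 0.946).

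Whether the TMG difference itself changed between stages was tested with interaction terms, and none of the 35, nor of all genes, passed 5% (0% in each direction). Between D12 and D30, BSN, RIMS2 and SYN2 had a larger TMG difference on D30 at an unadjusted p under 0.05 (1.83% of all genes) and NRXN3 a lower one (1.59%). The change was 1.05 ± 0.28 log2 units for RIMS2, 1.13 ± 0.50 for SYN2, 1.41 ± 0.55 for BSN and -1.19 ± 0.45 for NRXN3, each with an adjusted p of 1. Between D30 and D70, NRXN3 and STX1A had a higher (1.61%) and BSN and SYN2 a lower TMG difference (2.42%) at that threshold. Without D70 TMG replicate 1 there were 4 lower at 5% (CADPS, SLC17A6, SYP and SYT11; 1.39%), and without replicate 2 there were none.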

How the data were processed

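RNA of H9 cells was depleted of ribosomal RNA and sequenced (2 biological replicates for each of 8 groups). Per the labels and the study's methods, the authors aligned reads with Bowtie2 to hg19, estimated counts for Ensembl genes of GRCh37.p13 with RSEM v1.2.12 and deposited these expected counts as whole numbers, not normalized. How they were rounded and whether strand was used are not given in the sources used here. Names matched 55501 of 57736 genes. Counts were tested as deposited with edgeR 4.0.16 (R 4.3.3; TMM, filterByExpr with a minimum count of 10 and minimum total of 15, robust quasi-likelihood F-test, 1 mean per group, 16 libraries, 8 residual degrees of freedom), with Benjamini-Hochberg adjustment over 24249 genes within each comparison at 5%. SE is the log2 fold change over the root of its F. CPM use TMM library sizes, and log2 CPM a prior count of 2. P-values measure the spread between these cultures, pooled for each gene over all 8 groups. The replicate chi-square per degree of freedom was 29.17 (D0 TMG) to 181.9 (D70 TMG). A comparison of some stages therefore also carries the spread of the others. Scripts were tested on simulated data. Promoters were read from GRCh37 at GENCODE v44 starts. The members and lists were chosen with earlier results of these data known.

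Genes named by rule were, per role, the 4 with the largest change from D0 to D70 in control cells, at each stage the 2 with the lowest p of each sign for TMG, and any past 5% for TMG by edgeR or DESeq2. Other genes were named after their values were seen. Alternatives were DESeq2 1.42.0, RLE normalization, no filter, only the stages compared, the replicate number as a block, each library left out, and both D70 replicate 2 libraries left out. Exons of 6 members overlap those of a gene on the opposite strand with at least 10% of the member's counts: DLG4 (ACADVL), LRRTM2 (CTNNA1), RAB3A (MPV17L2), SHANK1 (C19orf81), SYN1 (ARAF) and SYN2 (TIMP4).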

Additional observations from a re-analysis of the deposited data

Results flagged for a closer look

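For 6 genes the 2 TMG libraries lay entirely on one side of the controls at one stage and entirely on the other side at another. The differences between D0 and a later stage were not tested. Such a switch was seen in 17.1% of the 35 and in 14.8% of all genes.

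DLG4 was higher with TMG on D0 (log2 difference 0.09) and lower on D12 (-0.18). SHANK2 was lower on D0 (-0.26) and higher on D12 (0.82). SYP was lower on D0 (-0.67) and higher on D30 (1.73). RIMS2 was lower on D0 (-0.13) and higher on D30 (1.06) and on D70 (0.45). BSN was lower on D0 (-0.20) and on D12 (-0.19) and higher on D30 (1.22). CPLX2 was lower on D12 (-0.26) and higher on D30 (1.23). Between D12 and D30 the difference itself was tested by edgeR's interaction term (1.41 ± 0.55 for BSN, adjusted p = 1 for BSN and for CPLX2).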

How the results depend on the processing

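RLE normalization changed no count of calls. DESeq2 called 7 genes from D12 to D30 (12.2% of its tested genes), 7 from D30 to D70 (8.13%) and 16 from D0 to D70 (31.3%) in control cells. It called 6 from D12 to D30 in TMG-treated cells (5.21%) and 2 for TMG on D30 (3.22%). With the stages compared alone in the fit, calls were 21 in control and 19 in TMG-treated cells from D0 to D12 (34.3% and 33.6% of all genes), 5 and 4 from D12 to D30 (6.94% and 3.64%), and 6 in TMG-treated cells from D0 to D70 (17.2%). Without the filter, 2 genes passed from D30 to D70 in control cells (0.767% of all genes) and 9 from D0 to D70 in TMG-treated cells (12.7%). With both D70 replicate 2 libraries left out, chosen after seeing the data, calls were 2 from D30 to D70 in control cells, and 21 in control and 26 in TMG-treated cells from D0 to D70. Over all genes the shares called were then 6.14% from D30 to D70 in control cells. From D0 to D70 they were 35.6% in control and 32.9% in TMG-treated cells. The causes of these shifts were not tested. The replicate number as a block gave 2 calls from D12 to D30 (4.38% of all genes) and 2 from D30 to D70 (0.759%) in control cells. For TMG on D30 it gave 1 (0.961%), RIMS2, with adjusted p = 0.0447 by edgeR. From D0 to D70 in control cells it added SHANK2, and it moved no other count by over 1.5 times. The differences between replicates 2 and 1 correlated between arms at 0.0453 (D0), 0.367 (D12), 0.223 (D30) and 0.607 (D70). The main fit did not take the numbers as pairs, because the D0 value was near 0 and no label names a shared batch. At the later stages, most of all on D70, the arms did share part of the replicate difference.

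With 1 library left out, which leaves a group with a lone sample assumed to vary like the others, calls in control cells ranged from 3 to 5 (D0 to D12), 0 to 0 (D12 to D30), 0 to 1 (D30 to D70) and 6 to 11 (D0 to D70), and in TMG-treated cells from 2 to 4, 0 to 1, 0 to 10 and 6 to 21. For TMG they were 0 on D0, D12 and D30 and 0 to 7 on D70, and for its change between D30 and D70 0 to 4. Signs turned for NLGN3 from D0 to D70 without D70 control replicate 1 (-0.67, in a range of -0.67 to 1.04), and for TMG on D70 in SV2B without TMG replicate 1 (-2.37, range to 4.05) and SHANK3 without control replicate 1 (0.09, range from -0.85). The share of all genes called with 1 library left out moved as well. In control cells it ran from 4.64% to 7.79%, 0% to 0.936%, 0% to 0.779% and 15.9% to 25.9%, in the order above. In TMG-treated cells it ran from 3.60% to 7.21%, 0% to 0.779%, 0.0124% to 6.76% and 12.2% to 27.4%. For TMG it was 0% on D0 and D12, 0% to 0.895% on D30 and 0% to 3.30% on D70. For its change between D30 and D70 it was 0% to 1.59%. Of 124 values for named genes with 1 library left out, 110 kept their direction and side of the threshold. SLC32A1, SLC17A6, SNAP25, SV2B and CPLX1 had few counts on D0, which limits the precision of their changes.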

Other observations

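Of 36 other presynaptic genes, listed with earlier results of these data known, 11 rose and 3 fell from D0 to D70 in control cells by edgeR (15.0% and 14.7% of all genes), with a median log2 fold change of 0.52. The lowest adjusted p among them were those of RAB3B, a relative of RAB3A (-2.04 ± 0.24, adjusted p = 0.000283), SYNJ1, a phosphatase of vesicle recycling (1.65 ± 0.27, adjusted p = 0.00147), SYT2, a fast synaptotagmin (-2.07 ± 0.36, adjusted p = 0.00212), and RIMBP2, which ties RIM proteins to calcium channels (3.26 ± 0.58, adjusted p = 0.00239). SYN3, the third synapsin, fell (-3.06 ± 0.65, adjusted p = 0.0063). These genes were picked for naming after their values were seen.

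Of 19 other adhesion and postsynaptic genes, 5 rose and 3 fell over the same course, with a median of -0.20. CAMK2A (4.49 ± 0.72, adjusted p = 0.00133) and CAMK2B (5.12 ± 0.82, adjusted p = 0.00137), the kinases of the postsynaptic density, rose, while DLGAP1, a partner of DLG4 (-1.75 ± 0.24, adjusted p = 0.000542), and NLGN4X (-3.24 ± 0.45, adjusted p = 0.000668) fell. For TMG on D30 none of either list passed 5% by edgeR. At an unadjusted p under 0.05, 7 of the 36 were higher and 2 lower, and 3 of the 19 were higher and 0 lower (7.10% and 4.89% of all genes), with RIMS4 (2.75 ± 0.54) at an adjusted p of 0.155.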
